A study of Mus musculus with 17 samples.

Results

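A set of 9 genes that make, carry, sense and destroy retinoic acid was followed in mouse lumbar dorsal root ganglia, where the cell bodies of sensory neurons lie with their glia. The members were taken by symbol: Aldh1a1, Aldh1a2 and Aldh1a3 for synthesis, Stra6 for uptake of the precursor, Crabp1 and Crabp2 for binding, Rarb for the receptor, and Cyp26a1 and Cyp26b1 for breakdown. They are 9 of the 78298 genes in the count tables and 9 of the 23972 genes that passed a filter on low counts. The set was selected on the measured levels of a pair of them in these libraries, the rise of Cyp26a1 after nerve injury and the low level of Crabp1 in the knockout, so these 2 genes are described here without a test in every comparison, since the comparisons share libraries. The filter asked for its level in 3 libraries, which Cyp26a1 had among the shams as well as after injury, though not in every library. It reached the filter's level of 0.17 counts per M gene counts of a library (CPM; M stands for mega) in 5 of 5 injured wild-type and 3 of 3 injured knockout-labelled libraries, but in 3 of 4 sham knockout-labelled and 1 of 5 sham wild-type libraries, whereas the other 8 members reached it in all 17.

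The mice were either wild type or labelled knockout for Twik1, a potassium channel encoded by Kcnk1, and had undergone either a sham operation or chronic constriction injury (CCI), in which loose ligatures are tied around the sciatic nerve. Bulk RNA sequencing of L4 to L6 ganglia gave 5 sham wild-type, 5 CCI wild-type, 4 sham knockout-labelled and 3 CCI knockout-labelled libraries, the last numbered 2, 3 and 4. All 17 libraries carry the label day 30. The background strain, sex and age of the mice, the deleted stretch of Kcnk1 and the number of animals behind a library were not stated in the labels. Whether each library is a separate animal is not stated either, and p-values therefore reflect the spread among these samples alone, which may be technical.

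Retinoic acid is a hormone-like derivative of vitamin A. Cells take up retinol, oxidise it to retinal, and retinaldehyde dehydrogenases of the Aldh1a family oxidise retinal irreversibly to retinoic acid, which small binding proteins carry either to nuclear receptors or to degrading cytochrome P450 enzymes of the Cyp26 family. In the peripheral nervous system retinoic acid acts on the outgrowth of sensory neurites and on cells of the injured nerve, and Cyp26a1 and Rarb are textbook targets of the receptors, so that the hormone raises both its own receptor and its own degrading enzyme.

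Libraries held 52.5 to 73.6 M gene counts. Kcnk1, the targeted gene, was lower in the knockout-labelled libraries by a mean over sham and CCI of log2 -0.47 ± 0.09 (SE; adjusted p = 0.00746, edgeR quasi-likelihood test) but remained at 75.1 to 114.5 CPM in the 4 sham and 78.3 to 89.0 CPM in the 3 CCI libraries with that label, so "knockout-labelled" is used throughout. Wild-type libraries held 94.3 to 139.2 CPM of Kcnk1 in sham and 106.2 to 121.0 after CCI, so the sham groups overlapped. Taken singly, neither difference passed 0.05: log2 -0.50 ± 0.12 in sham (adjusted p = 0.0659, edgeR) and -0.45 ± 0.13 after CCI (0.20). Sensory neuron markers were abundant in all groups, with a summed level of 13851 to 17512 CPM over 18 genes. In sham the sums were 14614 to 16296 CPM in wild type and 15443 to 17512 in knockout-labelled libraries. After CCI they were 13851 to 15334 and 16102 to 17295 CPM. None of the 18 passed for the mean genotype difference, though 15 had a positive difference. An unadjusted p under 0.05 (edgeR) was held by 7 of the 18, against 13.3% of all tested genes. A pair of sham libraries stood apart. Sham knockout-labelled libraries 1 and 2 held 140.6 and 103.3 CPM of Atf3, a transcription factor switched on in injured sensory neurons, against 11.1 and 13.2 CPM in libraries 3 and 4 of that group and 9.41 to 16.7 CPM in the 5 sham wild-type libraries. CCI libraries held 93.8 to 275.8 CPM. Results that rest on libraries 1 and 2 are therefore given with and without them. A number in the table names, whose meaning is not stated, is common to all shams, while each CCI group has its own. If it marks a batch, the batch cannot be told apart from injury, nor from genotype after CCI.

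The promoters of the members were searched for sites of the retinoic acid receptors. Those of Cyp26a1 and Rarb, which are among the known direct targets, are shown because only their windows held a match. RefSeq start sites (table build GRCm38.p6) gave 11 windows of 300 bases, from 250 before to 50 after a start, for 7 of the 9 members. Crabp2 and Aldh1a3 had none. The receptors recognise a pair of half-sites in the same orientation, and the windows were searched on both strands for the half-site AGGTCA or its variants, which were AGTTCA, then GGGTCA, and last GGTTCA, in any pairing, repeated with 1, 2 or 5 bases between them. Such a repeat with 5 bases between was present in the windows of Rarb and Cyp26a1, and with none of the 3 spacings in the windows of the other 5 members. Among all 32851 promoter windows in the table, 32 (0.0974%) held the repeat with 5 bases between, 73 (0.222%) that with 1 and 88 (0.268%) that with 2. The repeats are printed 5′ to 3′ along the repeat, each half-site in capitals, with 6 flanking bases on each side and placed by sequence match on GRCm39. That of Rarb lies on the plus strand at chr14:5894228-5894256. This is within the 5′ UTR annotated by GENCODE M39, but at -53 to -37 from the RefSeq start (half-sites and spacer), since the annotations differ. That of Cyp26a1 lies on the minus strand at chr19:37686218-37686246. Its half-sites and spacer (chr19:37686224-37686240) lie at -32 to -16 from the RefSeq start. They end directly upstream of the gene's start as annotated by GENCODE, and the flank printed first reaches 6 bases into that gene.
Rarb: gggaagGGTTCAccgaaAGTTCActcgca
Cyp26a1: caaattAGTTCAcccaaAGTTCAtcttta

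The 100 bases directly upstream of the annotated start of Cyp26a1 (GRCm39 chr19:37686141-37686240, plus strand) show where the repeat sits. Its half-sites, read here on the opposite strand and again in capitals, end at the last base before the start.
Cyp26a1 upstream: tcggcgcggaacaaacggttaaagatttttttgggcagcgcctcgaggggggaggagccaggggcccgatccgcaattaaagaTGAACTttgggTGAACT
The levels of both genes are given further on. A match is a description of the letters and does not show that a receptor was bound.

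**Figure D1:**
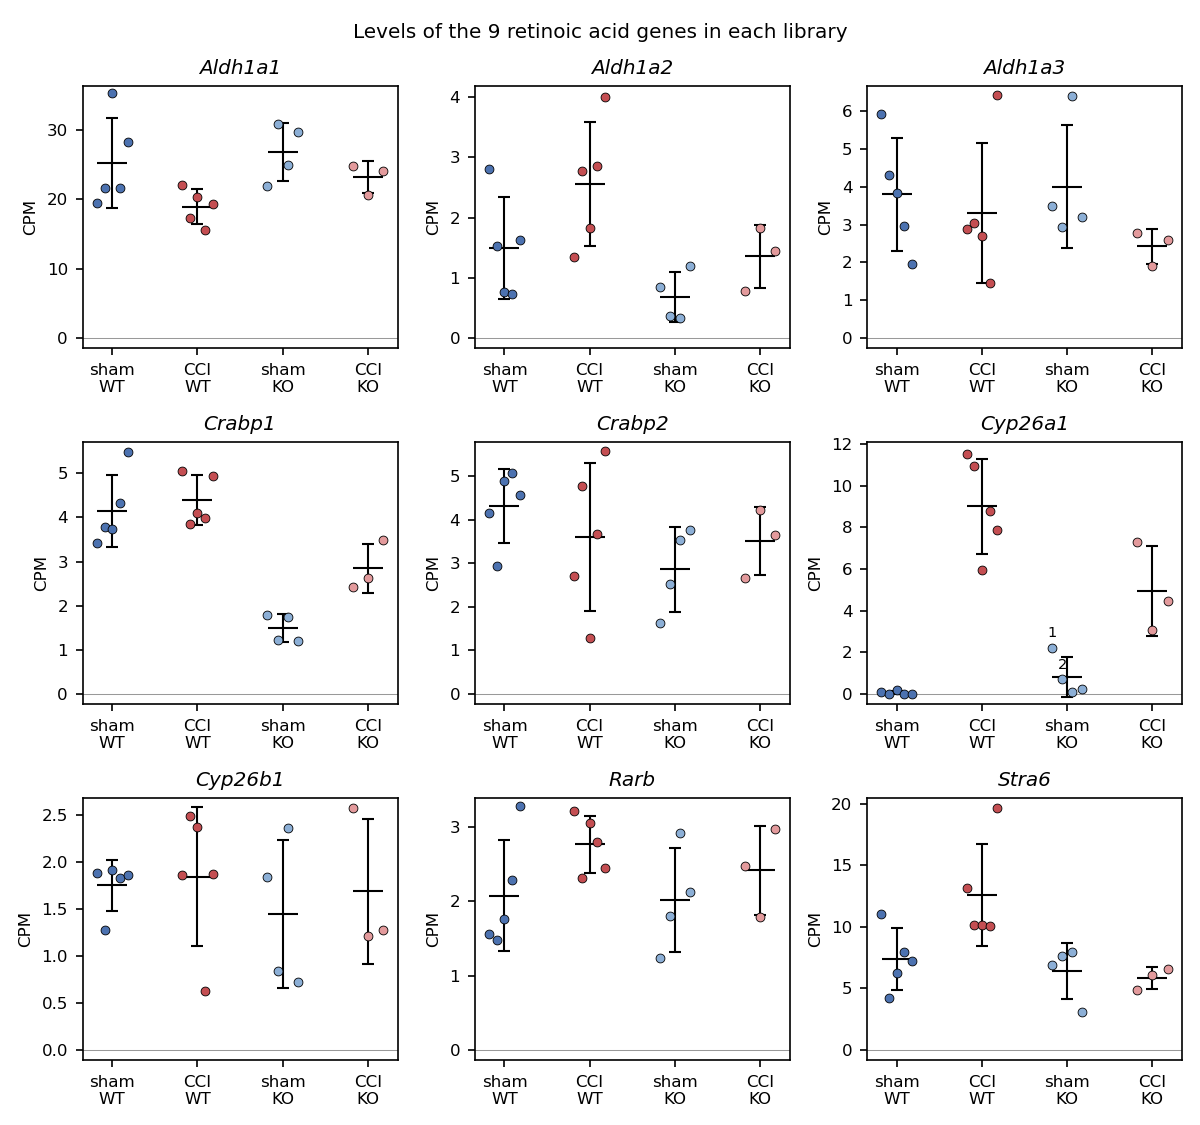
Level of each of the 9 members in every library, in CPM on a linear axis that differs between panels; points are single libraries (5 sham wild-type, 5 CCI wild-type, 4 sham and 3 CCI knockout-labelled, the last 2 groups marked KO), and black lines are the mean ± SD. Cyp26a1 is near 0 in sham wild type and 5.95 to 11.5 CPM after CCI, with sham knockout-labelled libraries 1 and 2 numbered, while Crabp1 lies at 1.19 to 1.80 CPM in sham knockout-labelled libraries, below all others.

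Per kilobase of exon, counted over all annotated exons of a gene, the binding proteins led in sham wild-type ganglia. That length was 10740 bases for Aldh1a1, against 1305 for Crabp1 and 1322 for Crabp2. A gene whose transcripts use only some of its annotated exons is placed too low by it. The order, and the shares per kb given below, therefore depend on the annotation. In CPM, without this division, Aldh1a1 stood first in every group. Crabp2 had 3.26 ± 0.64 CPM per kb (mean ± SD, n = 5) and Crabp1 3.18 ± 0.63, followed by Aldh1a1 at 2.35 ± 0.61, Stra6 at 0.871 ± 0.297 and Aldh1a3 at 0.668 ± 0.263. Aldh1a2 (0.323 ± 0.184), Cyp26b1 (0.308 ± 0.047) and Rarb (0.248 ± 0.089) formed a low trio, and Cyp26a1 was last at 0.0311 ± 0.0437. Neighbours differed by more than the larger of their SDs only between Crabp1 and Aldh1a1, Aldh1a1 and Stra6, Aldh1a3 and Aldh1a2, and Rarb and Cyp26a1. After CCI in wild type Cyp26a1 stood first, at 4.54 ± 1.15 CPM per kb, followed by Crabp1 at 3.36 ± 0.43. In the sham knockout-labelled libraries Aldh1a1 led at 2.50 ± 0.39 CPM per kb (n = 4) and Crabp1 held 1.14 ± 0.25. After CCI with that label Crabp2, Cyp26a1, Crabp1 and Aldh1a1 lay between 2.15 and 2.65 CPM per kb (n = 3), with gaps within their SDs.

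The synthesising enzymes are described first. Aldh1a1 (GRCm39 chr19:20469539-20622825, plus strand), the retinaldehyde dehydrogenase with the highest level here, had 25.2 ± 6.5 CPM (SD, n = 5) in sham wild type, 18.9 ± 2.5 (n = 5) in CCI wild type, 26.8 ± 4.2 (n = 4) in sham and 23.1 ± 2.3 (n = 3) in CCI knockout-labelled libraries. The lowest, median and highest values were 19.4, 21.7 and 35.3 CPM in sham and 15.6, 19.3 and 22.0 CPM in CCI wild type, so the groups overlapped. The difference between CCI and sham in wild type was log2 -0.42 ± 0.15 (SE), which did not pass the threshold of 0.05 (adjusted p = 0.148, edgeR). It passed in 1 of 26 fits, the one with no filter on low counts (adjusted p = 0.00132; the fits ranged from 0.00132 to 0.328). The 4 genotype and knockout-labelled injury differences of Aldh1a1 lay between log2 -0.21 and 0.29 and had adjusted p from 0.526 to 0.911 in edgeR. Aldh1a1 made up 52.2 to 79.7% of the 3 dehydrogenases' summed level per kb in sham wild type and 47.4 to 71.9% after CCI. In knockout-labelled libraries its share was 65.9 to 82.8% in sham and 72.4 to 77.8% after CCI.

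Aldh1a2 (chr9:71122630-71203527, plus strand), the main retinoic acid producing enzyme of the embryo and the meninges, had lower levels under the knockout label that did not pass the test. Its levels in sham wild-type libraries 1 to 5 were 2.82, 1.54, 0.757, 0.723 and 1.64 CPM, and in the 4 sham knockout-labelled libraries 0.847, 0.367, 0.324 and 1.19 CPM. CCI wild-type libraries held 1.35, 2.77, 1.82, 2.85 and 4.00 CPM, and CCI knockout-labelled libraries 2 to 4 held 0.788, 1.83 and 1.45 CPM. The groups overlapped within both treatments, and the highest values came from CCI wild type. The mean genotype difference was log2 -1.02 ± 0.33 (SE; adjusted p = 0.118, edgeR), with -1.12 ± 0.45 in sham and -0.92 ± 0.48 after CCI. The mean difference passed the threshold in 3 of 25 fits: in DESeq2 (adjusted p = 0.0319), with no filter on low counts (0.00599) and without sham knockout-labelled library 4 (0.0326). The fits ranged from 0.00599 to 0.33. Without sham knockout-labelled libraries 1 and 2 the mean difference was -0.94 ± 0.38 (adjusted p = 0.33, edgeR). The sham difference was then -0.96 ± 0.58 (0.763). The injury difference was 0.78 ± 0.41 in wild type (adjusted p = 0.417, edgeR) and 0.98 ± 0.50 under the knockout label (0.603). Of the exonic bases of Aldh1a2, 8.44% overlap the gene Gm3458, and the library kit keeps no record of strand.

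Connective tissue markers were counted in the same libraries. Of 12 fibroblast and sheath markers, 3 were lower and none higher in the mean genotype comparison, where 2.55% of all tested genes passed. None of the 12 had a positive difference, and the median was log2 -0.45. An unadjusted p under 0.05 (edgeR) was held by 5 of the 12, against 13.3% of all tested genes. Their summed level was 1124 to 1976 CPM in sham wild type and 1029 to 1595 in sham knockout-labelled libraries. After CCI it was 1499 to 2959 in wild-type and 1336 to 1378 in knockout-labelled libraries, with none of the 12 at 0. Of 10 meningeal fibroblast markers 1 was higher and none lower past the threshold in that comparison, although only 2 of 10 had a positive difference. The median was log2 -0.47 (-0.00068 over all tested genes), and 5 of 10 had an unadjusted p under 0.05 (edgeR; 13.3% of all tested genes). They had summed levels of 57.5 to 151.4 CPM in sham and 49.1 to 219.6 in CCI wild type, and of 65.3 to 134.6 in sham and 55.9 to 153.7 in CCI knockout-labelled libraries. Skeletal muscle and adipocyte markers, 8 genes, summed to 134.3 to 231.2 CPM in CCI knockout-labelled and 7.45 to 89.3 CPM in CCI wild-type libraries. All 8 had a positive difference there (median log2 1.37), but none passed the threshold. In sham their sums were 2.30 to 191.4 CPM in wild type and 7.28 to 846.9 under the knockout label. Spinal cord glia markers summed to 22.0 to 154.5 CPM in sham wild type and to at most 51.6 CPM in the other groups. The part of these markers in the levels of Aldh1a2 and of the other members was not tested. In bulk tissue, fewer cells of a type and less RNA per cell cannot be told apart, which holds for every member.

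Aldh1a3 (chr7:66040638-66077850, minus strand), the remaining dehydrogenase, varied widely within groups. It ranged from 1.95 to 5.94 CPM in sham wild type, 1.44 to 6.42 in CCI wild type and 2.94 to 6.42 in sham knockout-labelled libraries. The 3 CCI knockout-labelled libraries, at 1.90, 2.59 and 2.79 CPM, lay below all 4 sham libraries of that label. That difference, log2 -0.72 ± 0.42 (SE), did not pass the test (adjusted p = 0.686, edgeR), and 3.15% of all tested genes were lower without overlap in the same comparison. In wild type the difference was -0.20 ± 0.34 (adjusted p = 0.901).

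Stra6 (chr9:57970967-58063543, plus strand) is a membrane receptor for retinol bound to its blood carrier and imports retinol into cells. In label order the sham wild-type libraries held 11.1, 4.22, 6.26, 7.95 and 7.26 CPM, and CCI wild-type libraries 13.1, 10.1, 10.1, 10.04 and 19.6 CPM. Sham knockout-labelled libraries held 6.92, 7.62, 7.98 and 3.10 CPM, and the CCI libraries of that label 4.88, 6.12 and 6.59 CPM. All but the first of the sham wild-type libraries lay below the CCI wild-type libraries, whereas the CCI libraries of the knockout label stayed within the range of their shams. After CCI, every knockout-labelled library lay below every wild-type library, which held for 4.37% of all tested genes in that direction.

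In wild type the injury difference of Stra6 was log2 0.78 ± 0.28 (SE; adjusted p = 0.171, edgeR), and under the knockout label -0.13 ± 0.34 (adjusted p = 0.972). The genotype difference after CCI was -1.11 ± 0.33 (adjusted p = 0.20), and in sham -0.20 ± 0.30 (0.89). None passed the threshold in edgeR. After CCI the genotype difference passed in 3 of 26 fits, DESeq2 (adjusted p = 0.00741), the fit of only the 2 groups compared (0.024) and the fit with no low-count filter (0.0343), within a range of 0.00741 to 0.585. The injury difference in wild type passed in DESeq2 alone (0.0295). The difference between both injury effects, -0.90 ± 0.44, did not pass (adjusted p = 0.859, edgeR), so a different injury response of Stra6 between the labels is not shown.

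Crabp1 (chr9:54671171-54680403, plus strand), a small cytosolic protein that binds retinoic acid and is known to pass it to degrading enzymes, was chosen for its low level under the knockout label. The sham wild-type libraries, 1 to 5, gave 3.42, 3.79, 3.73, 4.34 and 5.49 CPM, and the 4 sham knockout-labelled libraries 1.80, 1.23, 1.73 and 1.19 CPM. CCI wild-type libraries held 5.05, 3.85, 4.11, 3.98 and 4.95 CPM, and CCI knockout-labelled libraries 2 to 4 held 2.43, 2.63 and 3.49 CPM. Within each treatment every knockout-labelled library lay below every wild-type library. These counts were small but not sparse, from 67 to 336 reads per library.

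As a description, the genotype difference of Crabp1 was log2 -1.48 ± 0.21 (SE) in sham and -0.62 ± 0.23 after CCI. Of all tested genes, 1% passed the threshold for genotype in sham and 0.684% after CCI, and 2.08% and 4.37% were lower without overlap, but nothing is read from this for the gene on which the choice rested. Leaving out the 2 sham libraries with high Atf3 gave -1.50 ± 0.28 in sham. The difference between CCI and sham was 0.079 ± 0.191 in wild type. Under the knockout label all 3 CCI libraries lay above all 4 sham libraries, with a difference of 0.94 ± 0.23, and 4.41% of all tested genes were higher without overlap in that comparison. It shares the 4 sham knockout-labelled libraries with the genotype difference for which Crabp1 was chosen. The difference between both injury effects was 0.86 ± 0.30.

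Markers of myelinating Schwann cells moved with the genotype label in the same libraries. Of 12 myelinating Schwann cell markers, 8 were lower in sham, 7 after CCI and 11 in the mean genotype comparison, and none was higher. Over all tested genes 1%, 0.684% and 2.55% passed in these comparisons. Without sham knockout-labelled libraries 1 and 2 the counts were 2, 7 and 10 of 12, where 0.146%, 0.873% and 1.59% of all tested genes passed. In sham 10 of the 12 then still had an unadjusted p under 0.05 (edgeR), against 12 of 12 with those libraries. Their summed level was 10155 to 14539 CPM in sham wild type and 10978 to 15195 in CCI wild type, against 4650 to 6600 in sham and 6071 to 7518 in CCI knockout-labelled libraries, with none of the 12 at 0. Of 8 satellite glia markers 1 was higher and 2 lower in the mean genotype comparison. None of 6 perineurial and none of 9 repair Schwann cell markers passed there, although 1 of the 9 alone had a positive difference. Of 4 tested melanocyte markers, 1, the pigment gene Tyrp1, was lower in both genotype comparisons. The summed level over 8 such markers was 16.8 to 26.8 CPM in sham and 17.2 to 21.4 in CCI wild type, against 4.93 to 8.06 and 4.24 to 6.47 under the knockout label. Tyrp1 carried that sum, at means of 18.1 and 15.7 CPM in sham and CCI wild type against 4.08 and 1.98 CPM under the label. Mitf, the regulator of the pigment cell lineage, averaged 2.49 and 2.62 CPM in wild type against 1.67 and 2.59 CPM, and Pmel and Oca2, a pair of further pigment cell genes, averaged at most 0.729 CPM in any group. Tyr, the enzyme of pigment synthesis, was at 0 in CCI wild-type and sham knockout-labelled libraries. The part of these cell types in the levels of Crabp1, Aldh1a2 and Stra6 was not tested.

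Crabp2 (chr3:87855973-87860683, plus strand), the relative of Crabp1 that is known to deliver retinoic acid to nuclear receptors, had no difference past the test. It had 4.32 ± 0.85 CPM (SD, n = 5) in sham and 3.60 ± 1.69 (n = 5) in CCI wild type, and 2.86 ± 0.98 (n = 4) in sham and 3.51 ± 0.79 (n = 3) in CCI knockout-labelled libraries. The groups overlapped in all 4 comparisons of treatment or label. The genotype difference was log2 -0.60 ± 0.32 (SE) in sham (adjusted p = 0.517, edgeR) and -0.040 ± 0.344 after CCI (0.991). Without sham knockout-labelled libraries 1 and 2, which held the lowest values of their group at 1.62 and 2.52 CPM, the sham difference was -0.24 ± 0.37 (adjusted p = 0.952). Injury differed by -0.26 ± 0.30 in wild type (0.827) and 0.30 ± 0.36 under the knockout label (0.905).

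Rarb (chr14:5650540-6041094, plus strand), the retinoic acid receptor whose own gene responds to the hormone, showed no difference past the threshold in any comparison. Its levels were 1.48 to 3.29 CPM in sham and 2.32 to 3.22 in CCI wild type, and 1.24 to 2.91 in sham and 1.79 to 2.98 in CCI knockout-labelled libraries. The CCI wild-type libraries lay within the upper part of the sham range. The injury difference was log2 0.41 ± 0.26 (SE) in wild type (adjusted p = 0.538, edgeR), and both genotype differences lay between -0.19 and -0.044, with adjusted p of 0.949 and 0.98. Of its exonic bases 33.9% overlap Gm48162 and the neighbouring gene Top2b, a share that the unstranded reads cannot resolve.

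Cyp26a1 (chr19:37686241-37689984, plus strand) oxidises retinoic acid to inactive products and was the member chosen for its injury response. Sham wild-type libraries 1 to 5 gave 5, 0, 12, 0 and 1 reads, or 0.0914, 0, 0.202, 0 and 0.0163 CPM. For the libraries with 0 reads, a count of 0 allows up to 0.0523 CPM in library 2 and 0.0409 CPM in library 4 (3 reads, counting error only). After CCI, wild-type libraries gave 744, 629, 310, 474 and 514 reads, or 11.5, 10.97, 5.95, 8.78 and 7.88 CPM. These libraries lay far above their shams, with an SD of 25.3% of their mean.

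Under the knockout label, sham libraries 1 to 4 gave 131, 39, 6 and 14 reads of Cyp26a1, or 2.22, 0.716, 0.114 and 0.232 CPM. The 3 CCI libraries of that label gave 446, 170 and 314 reads, or 7.32, 3.08 and 4.45 CPM. The 2 sham libraries with high Atf3 were also the highest of the shams for Cyp26a1, and libraries 3 and 4 lay at 0.114 and 0.232 CPM, near the highest sham wild-type library at 0.202 CPM. All CCI libraries of both labels lay above all shams. Of all tested genes, 3.44% were higher without overlap after CCI in wild type and 4.41% under the knockout label.

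Expressed as a fold change with no test, the injury difference of Cyp26a1 was log2 7.19 ± 0.93 (SE) in wild type and 2.58 ± 0.80 under the knockout label. The latter was 4.80 ± 0.85 without sham libraries 1 and 2, and the difference between both injury effects shrank from -4.61 ± 1.24 to -2.39 ± 1.08. Fold changes against the sham wild-type group rest on 18 reads in all, 12 of them in library 3. Without that library the injury difference in wild type was 8.40 and the difference between both injury effects -5.81. Without sham knockout-labelled library 1 alone, the injury difference under that label was 3.8 and the difference between effects -3.39. Genotype in sham differed by 3.74 ± 0.95, by 4.95 without sham wild-type library 3, by 2.53 without sham knockout-labelled library 1 and by 1.53 ± 0.95 without libraries 1 and 2 of that label together. After CCI the knockout-labelled libraries differed from wild type by -0.87 ± 0.75, and both groups overlapped.

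**Figure D2:**
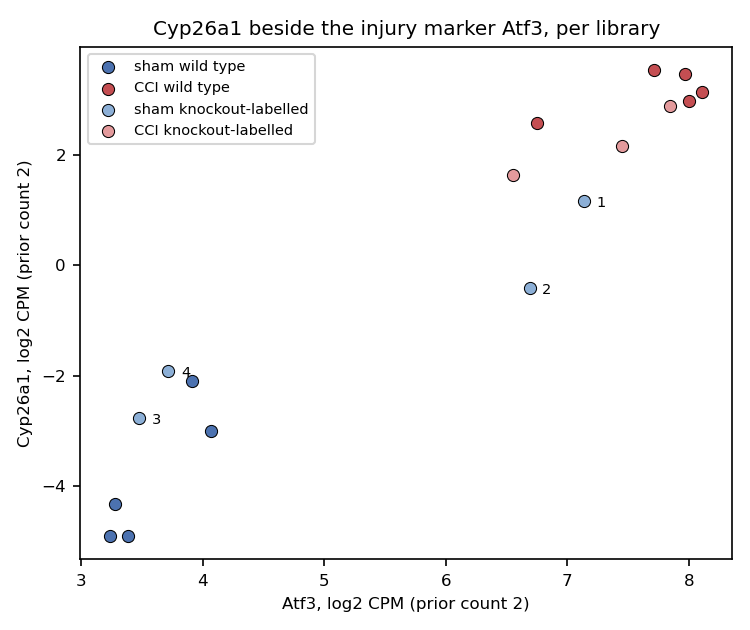
Level of Cyp26a1 against that of the injury marker Atf3 in each of the 17 libraries, both as log2 CPM with a prior count of 2; colours mark the 4 groups and numbers mark the sham knockout-labelled libraries. Libraries 1 and 2 of that group, at log2 CPM of 7.14 and 6.69 for Atf3 and 1.17 and -0.42 for Cyp26a1, lie between the other shams and the CCI libraries for Cyp26a1.

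Axon injury markers rose in the same comparison. Of 17 tested, 16 were higher after CCI in wild type, where 2.34% of all tested genes were higher past the threshold, and the median difference was log2 1.90 against -0.0067 over all tested genes. For genotype in sham 1 of the 17, Sprr1a, a protein made by regenerating neurons, was higher past the threshold, and 14 of 17 had an unadjusted p under 0.05. Without sham knockout-labelled libraries 1 and 2 these counts were 0 and 1 of 17. Over all tested genes the share past the threshold then fell from 1% to 0.146%. The summed level of the 18 markers was 888.1 to 1215 CPM in sham and 1949 to 3141 in CCI wild type, and 943.5 to 2196 in sham and 1843 to 2676 in CCI knockout-labelled libraries. Macrophage markers rose as well in wild type, 6 of 12, from summed levels of 62.0 to 116.3 CPM to 92.2 to 187.9 CPM, with none at 0. The part of either list in the level of Cyp26a1 was not tested.

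Cyp26b1 (chr6:84548396-84570890, minus strand), the other retinoic acid hydroxylase, did not follow Cyp26a1. It ranged from 1.27 to 1.92 CPM in sham and 0.630 to 2.49 in CCI wild type, and from 0.728 to 2.36 in sham and 1.21 to 2.58 in CCI knockout-labelled libraries. The injury difference was log2 0.075 ± 0.349 (SE) in wild type (adjusted p = 0.972, edgeR) and 0.23 ± 0.42 under the knockout label (0.952), and genotype differed by -0.28 ± 0.37 in sham (0.871) and -0.13 ± 0.41 after CCI (0.98). The balance between the pair turned with injury, which follows from the rise for which Cyp26a1 was chosen. Cyp26a1 made up 0 to 23.2% of their summed level per kb in sham wild type and 87.8 to 97.6% after CCI. Under the knockout label the share was 12.2 to 77.5% in sham, the highest value belonging to library 1, and 87.9 to 90.9% after CCI.

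**Figure D3:**
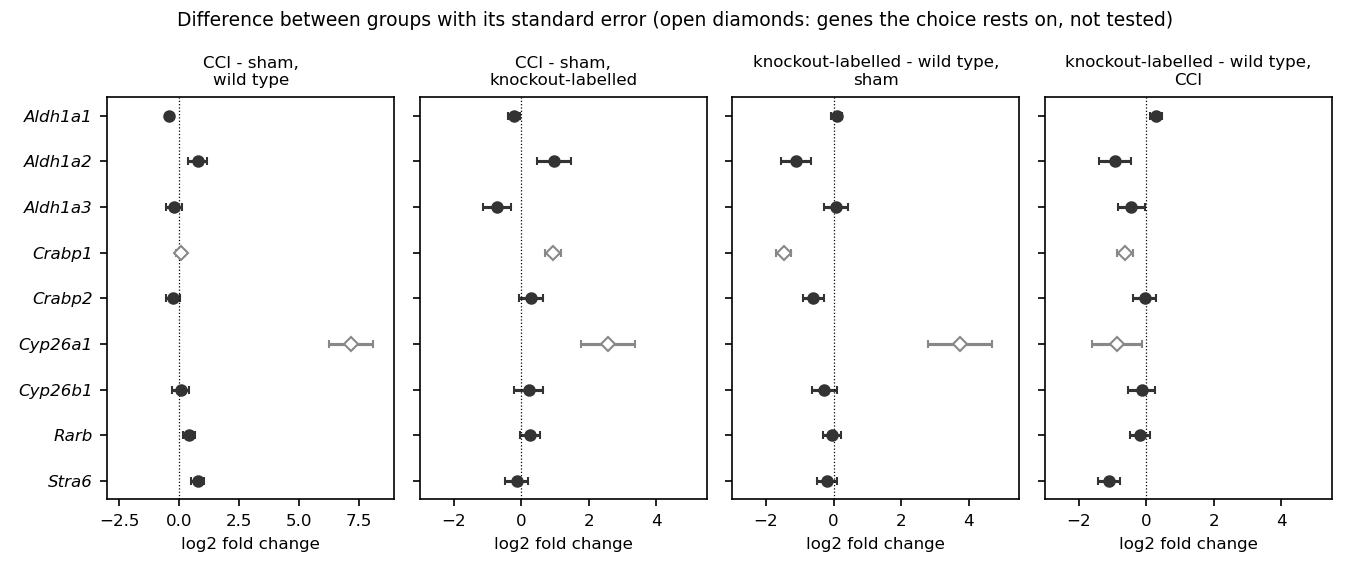
Log2 fold change with its SE for the 9 members in 4 comparisons from the edgeR fit over 17 libraries; the first panel has its own axis range, the dotted line marks no difference, and open diamonds mark Cyp26a1 and Crabp1, on which the choice of members rests and which were not tested. No filled point passed the threshold, and the filled points lie between -1.12 and 0.98.

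Among the 7 members other than Cyp26a1 and Crabp1, edgeR called 0 for injury in wild type (background 3.06% of tested genes), 0 for injury under the knockout label (0.0834%), 0 for genotype in sham (1%), 0 for genotype after CCI (0.684%) and 0 for the mean genotype difference (2.55%). At an unadjusted p under 0.05 the counts were 2, 0, 1, 1 and 2 of 7, where 13.8, 8.63, 11.4, 8.78 and 13.3% of all tested genes passed. DESeq2 called 1, 0, 0, 1 and 2 of 7, against 5.28, 0.706, 3.12, 2.06 and 6.07% of the genes to which it gave an adjusted p. Limma-voom called 0 in each, against 4.97, 0.129, 1.21, 1.83 and 4.48%. For the difference between both injury effects 0 of 7 were called by edgeR (background 0%), DESeq2 (0.123%) and limma-voom (0.0167%), and 0 had an unadjusted p under 0.05 (5.87% of all genes). The median difference of the 7 members was log2 0.075 for injury in wild type and -0.20 for the mean genotype comparison, against -0.0067 and -0.00068 over all tested genes.

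The rest of the retinoid pathway was read from 6 lists of genes, of which 59 were tested. After CCI in wild type 5 of the 59 rose and none fell, where 3.06% of all tested genes passed the threshold and 2.34% were higher. Akr1b8, an aldo-keto reductase that can reduce retinal, rose from 4.21 ± 0.81 to 11.04 ± 2.0 CPM (SD, n = 5 each; log2 1.39 ± 0.20, SE, adjusted p = 0.00015, edgeR). Cyp1b1, a cytochrome P450 that can oxidise retinol and retinal towards retinoic acid, rose from 22.6 ± 3.5 to 65.4 ± 9.9 CPM (log2 1.53 ± 0.17, adjusted p = 0.000226). Fabp5, a fatty acid binding protein that also carries retinoic acid, rose slightly, by log2 0.27 ± 0.07 (adjusted p = 0.0248, edgeR), a call that held in 21 of 26 fits (highest adjusted p 0.104). Nrip1, a receptor corepressor, rose by 0.57 ± 0.10 (0.00135) and Plat, the tissue plasminogen activator, by 0.77 ± 0.14 (0.00461). By list, these were Cyp1b1 and Fabp5, the 2 tested genes among the other makers, carriers and degraders of retinoic acid, with 1 of 17 genes of retinol and retinal interconversion, 1 of 8 coregulators and 1 of 19 genes known to respond to retinoic acid. None of 8 genes of retinol uptake, transport and storage passed in edgeR, with 1 of 8 at an unadjusted p under 0.05. The receptors Rara, Rarg, Rxra, Rxrb and Rxrg did not pass in any comparison, with at most 1 of 5 at an unadjusted p under 0.05.

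Under the knockout label 1 of the 59 was called for injury (background 0.0834%), Cyp1b1, which went from 31.4 ± 6.3 (n = 4) to 71.3 ± 21.0 CPM (n = 3; log2 1.18 ± 0.20, adjusted p = 0.0492, edgeR). That call is unsteady, since it held in 11 of 26 fits with adjusted p from 2.37e-05 to 0.436. Without sham libraries 1 and 2 the difference was 1.40 ± 0.25 (adjusted p = 0.034).

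For genotype, 5 of the 59 passed in the mean over both treatments, against 2.55% of all tested genes. Rdh5, a retinol dehydrogenase of the visual cycle, was lower, by log2 -0.52 ± 0.10 (SE; adjusted p = 0.00228, edgeR), with 13.1 ± 2.0 and 9.89 ± 1.04 CPM in sham wild-type and knockout-labelled libraries and 13.8 ± 1.3 and 8.88 ± 1.11 CPM after CCI. Dhrs3, which returns retinal to retinol and limits retinoic acid formation, was lower by -0.46 ± 0.12 (0.0403; past the threshold in 10 of 25 fits), Rlbp1, a carrier of retinal, by -0.38 ± 0.09 (0.0169) and Rarres2, which encodes the adipokine chemerin, by -0.43 ± 0.11 (0.0259). Ncoa1, a receptor coactivator, was higher by 0.23 ± 0.06 (0.0211). Without sham knockout-labelled libraries 1 and 2 only Rdh5 of these passed (-0.54 ± 0.11, adjusted p = 0.00682), and the others had adjusted p from 0.0687 to 0.151. Rdh5 was also the single gene of the 59 to pass for genotype after CCI (-0.63 ± 0.14, adjusted p = 0.0303; 19 of 26 fits; background 0.684%). For genotype in sham 0 of the 59 passed in edgeR, with 13 at an unadjusted p under 0.05 (11.4% of all tested genes) and 2 in DESeq2 (3.12%). The myelinating Schwann cell markers given above were lower in the same libraries, and their part in these differences was not tested.

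**Figure D4:**
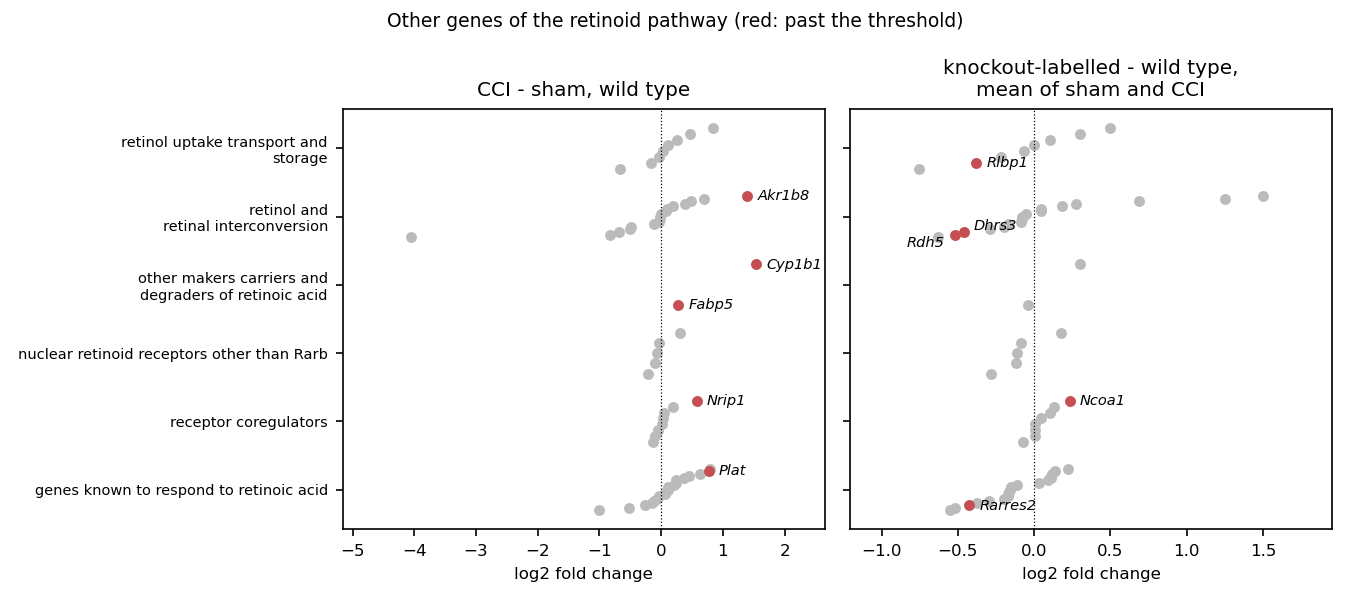
Log2 fold changes of the 59 other tested retinoid pathway genes, by list, for injury in wild type (left) and for the mean genotype difference (right); each point is a gene, red points passed the threshold of an adjusted p of 0.05 in edgeR and are named, and the axis ranges differ. Of these, 5 rose with injury (0.27 to 1.53), while 4 were lower (-0.52 to -0.38) and 1 higher (0.23) under the knockout label.

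Genes whose log2 CPM followed the 2 chosen members most closely over all 17 libraries were listed as a description. For Cyp26a1 these were the neuropeptide and receptor genes Cckbr (Pearson r = 0.989), Npy (0.982) and Nts (0.97), the growth factor gene Fgf3 (0.966) and Jpt1 (0.963). The first 3 are also in the list of axon injury markers. Mean levels of Cckbr were 0.169 CPM in sham and 37.7 in CCI wild type, and 3.83 in sham and 25.5 in CCI knockout-labelled libraries, the same order of groups as for Cyp26a1. For Crabp1 the nearest genes were Tnmd (r = 0.908), Ctnnal1 (0.892), Stard5 (0.888), Nrep (0.879) and Ednrb (0.877). Tnmd was near the filter's level of 0.17 CPM. It averaged 0.577 CPM in sham and 0.464 in CCI wild type, against 0.042 and 0.180 CPM under the knockout label. Ednrb, an endothelin receptor gene expressed by glia and pigment cell precursors, averaged 164.6 CPM in sham and 206.1 in CCI wild type against 104.3 and 165.1 CPM under the knockout label. Libraries within a group share treatment and label, so these values describe a common pattern over 4 groups. That pattern includes the differences for which Cyp26a1 and Crabp1 were chosen. Cyp26a1 and Crabp1 themselves did not follow each other (r = 0.0848).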

How the data were processed

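Per the labels' protocols, ganglion RNA came from a PicoPure kit, and libraries from the SMART-Seq v4 low-input kit. Per the submitters' processing notes, the authors used bcl2fastq 2.20.0.422 and STAR 2.7.11a with build GRCm39. What they deposited is unnormalised read counts, 1 table per library, keyed by Ensembl gene. The counter's settings were not stated. Its 5 summary lines were left out. GENCODE M39 matched 78168 of 78298 identifiers.

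Genes were kept by edgeR's filterByExpr (minimum count 10, minimum total 15), scaled by TMM (factors 0.983 to 1.03; CPM are per scaled library) and tested with edgeR 4.0.16's quasi-likelihood F test, 1 mean per group over 17 libraries, with Benjamini-Hochberg adjustment over 23972 genes at 0.05. The SE of a log2 difference was taken as its size divided by the square root of its F statistic. It is therefore derived from the test and is no separate estimate of the error. The members and lists were chosen with earlier results of these data known. For Cyp26a1 and Crabp1, on whose levels the choice rested, no p-value is given. Their SEs come from the same fit, and no test is to be read from them. All 9 members were named in every comparison, up to 4 genes per list by smallest p, and the 5 protein-coding genes nearest in log2 CPM (prior count 2) to Cyp26a1 and to Crabp1. Marker lists of other cell types were read as counts and summed CPM. Alternatives were DESeq2's size factors, other low-count filters, DESeq2 1.42.0, limma-voom 3.58.1, a replicate block, only the groups compared, and each library left out. The fit was tested on simulated data. R 4.3.3, Python 3.11.15, NumPy 2.4.6 and Matplotlib 3.10.9 were used.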

Additional observations from a re-analysis of the deposited data

Results flagged for a closer look

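In 2 of 27 groups of 4 or 5 libraries checked, 1 library's member level lay apart from the rest of its group by Dixon's criterion, where chance flags about 1 in 20. Cyp26b1, the retinoic acid hydroxylase that did not follow injury, was lowest in sham wild-type library 2 at 1.273 CPM, with the nearest library of that group at 1.828 CPM. Aldh1a3 was highest in sham knockout-labelled library 3 at 6.416 CPM, with the nearest at 3.488 CPM.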

How the results depend on the processing

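Counts below are for injury in wild type, injury under the knockout label, genotype in sham, genotype after CCI, mean genotype and the difference between injury effects. The reported counts over all genes were 733, 20, 240, 164, 612 and 0, those of the 7 members other than Cyp26a1 and Crabp1 0 in each, and those of the other retinoid pathway genes 5, 1, 0, 1, 5 and 0. DESeq2 called 1158, 136, 658, 398, 1062 and 28 of all genes, 1 member for injury in wild type, 1 for genotype after CCI and 2 for mean genotype, and 2 pathway genes each for injury under the knockout label and both genotype comparisons. With no low-count filter the counts were 1301, 224, 702, 452, 1112 and 77 of all genes, 1 member for injury in wild type, 1 for genotype after CCI and 2 for mean genotype, and 9, 5, 3 and 4 pathway genes in the first 4 comparisons. Limma-voom called 1192, 31, 439, 1074 and 4 of all genes (genotype in sham stayed within 1.5 times) and 3 pathway genes after CCI. DESeq2's size factors gave 11 genes and 0 pathway genes for injury under the knockout label. Fitting only the 2 groups compared gave 4, 69 and 407 genes from the second to the fourth comparison, 0 pathway genes for injury under the knockout label, and 1 member and 4 pathway genes after CCI. The causes of these shifts were not tested.

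Of 22 pairs of libraries with equal replicate numbers, 1 correlated over 0.1 (-0.013 to 0.118). Of 17 libraries, 6 correlated best with a library of their own number. The count that chance would give was not computed, so these values do not decide whether the numbers pair libraries. The replicate block gave 46, 139, 91 and 402 of all genes from the second to the fifth comparison, 1 pathway gene in sham and 0 after CCI, and turned Cyp26b1 to log2 -0.039 for injury in wild type and 0.043 after CCI, and Rarb to 0.056 in sham. Limma-voom turned Cyp26b1 to -0.042 for injury in wild type and Rarb to 0.079 for the difference between injury effects. Without sham knockout-labelled libraries 1 and 2, an alternative chosen after seeing the data, 147, 37 and 404 of all genes passed for injury under the knockout label, genotype in sham and mean genotype, with 2 and 1 pathway genes for injury and mean genotype. Crabp2 (-0.054), Rarb (-0.055) and Stra6 (0.087) then turned for injury under the knockout label, and Rarb for genotype in sham (0.28) and in the mean (0.045).

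Leaving out 1 library at a time gave 423 to 998, 0 to 43, 88 to 665, 18 to 229, 396 to 995 and 0 to 7 of all genes, 0 to 1 members in the mean genotype comparison (Aldh1a2, without sham knockout-labelled library 4), and 0 to 1, 0 to 2, 0 to 1 and 2 to 6 pathway genes from the second to the fifth comparison. The lowest counts came without CCI wild-type library 5, CCI knockout-labelled library 2, sham knockout-labelled library 2 and, for both genotype after CCI and the mean, CCI knockout-labelled library 3. Log2 differences that turned were Cyp26b1 (-0.057 to 0.29) and Aldh1a3 (-0.60 to 0.019) for injury in wild type, Cyp26b1 (-0.21 to 0.56) for injury under the knockout label, Aldh1a3 (-0.24 to 0.30), Rarb (-0.27 to 0.19) and Stra6 (-0.34 to 0.030) in sham, Cyp26b1 (-0.56 to 0.062) and Crabp2 (-0.25 to 0.18) after CCI, Aldh1a3 (-0.34 to 0.018) in the mean, and Cyp26b1 (-0.29 to 0.49), Aldh1a2 (-0.16 to 0.61) and Rarb (-0.38 to 0.075) for the difference between injury effects. The depth limits Cyp26a1 in sham wild type, at 0 to 12 reads.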
